A study of Mus musculus with 6 samples.

Results

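The epithelial sodium channel and the genes that place it under mineralocorticoid control were read in the renal cortex of diabetic mice with and without the C3a receptor. The 10 genes were taken by name: the channel subunits Scnn1a, Scnn1b and Scnn1g, the receptors Nr3c2 and Nr3c1, the enzyme gene Hsd11b2, and the regulators and target genes Sgk1, Nedd4l, Tsc22d3 and Usp2. They had 21 of the 56605 gene probes on the array. The filter required a signal well above background on 3 or more arrays. Of the 21 probes 19 passed it, and all 10 genes were among the 22741 genes tested.

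The epithelial sodium channel carries sodium across the apical membrane of the connecting tubule and collecting duct, the last nephron segments to adjust how much salt leaves in urine. Aldosterone binds the mineralocorticoid receptor in these cells, and the receptor turns on genes such as Sgk1, whose kinase holds off the ubiquitin ligase NEDD4L that would otherwise take the channel from the membrane. Corticosterone, the main glucocorticoid of the mouse, binds the same receptor, and the enzyme made from Hsd11b2 inactivates it so that aldosterone can act alone.

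Male C57BL/6 mice were put on a diet with 60% of its calories as fat at 8 weeks of age. After 4 weeks they received streptozotocin, a toxin of insulin-producing beta cells, at 60 mg/kg on 3 days, and they were killed 26 weeks later. One group was wild type (WT, n = 3) and the other lacked the receptor for the complement fragment C3a (C3aR-/-, n = 3), so both groups shared the diet and the toxin. The labels name no targeting construct, Cre driver or littermate scheme, and none of the arrays came from the study's non-diabetic groups. The question set by this design is therefore how the genotypes differed within diabetes. Each sample was hybridised to a 1-colour Agilent array, and each level is the log2 signal minus the array's 75th percentile of log2 signals. A level can be compared between arrays for 1 probe but not between probes. Differences are C3aR-/- minus WT with limma standard errors (SE) or 95% intervals, and the number of arrays limits their precision. The labels do not say that the replicates were separate animals, so the p-values cover sample-to-sample spread that may be technical.

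Between 58.6% and 63.0% of probes were well above background on an array. C3ar1, which encodes the deleted receptor, read -2.96, -3.86 and -3.62 in WT and -4.10, -4.95 and -4.69 in C3aR-/-, a difference of -1.10 ± 0.30 (limma adjusted p = 0.931), and its probe was still well above background on 2 of the C3aR-/- arrays. With normexp background correction its difference was -0.39. Whether the probe lies in the deleted part of the gene is not stated in the labels, so this reading does not check the genotype. No gene passed an adjusted p of 0.05 in limma (0% of 22741), and 1111 genes had an unadjusted p under 0.05 (4.89%). The first principal component held 43.1% of the variance and set WT replicate 1 (1 end) against C3aR-/- replicate 2 (the other end), called the end arrays below. The arrays lay in rows of 1 slide, and WT replicate 1 shared row 2 with C3aR-/- replicate 3. Values without both end arrays stand beside the results that they move. T cell markers read lower in C3aR-/- for 14 of 15 genes (median difference -1.18) and macrophage markers for 13 of 14 (median -0.59). These medians were -0.94 and -0.24 without both end arrays. In whole cortex, fewer cells of a type and less RNA per cell cannot be told apart.

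Upstream DNA is shown for Sgk1, Tsc22d3 and Usp2, the hormone-responsive genes that were lowest on the same array. Probe positions are shown for these genes and for Scnn1a and Hsd11b2. RefSeq promoters (GRCm38.p6) were matched for 6 of the 10 genes, but not for Scnn1a or Hsd11b2. Sgk1 had 6 promoters and Tsc22d3 had 3, and for each of these genes a promoter that held a match is printed. The 250 bases before the transcript start are printed 5′ to 3′ in the direction of the gene. Capitals mark matches on either strand to the palindromic corticosteroid receptor element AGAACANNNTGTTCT, to its short arm AGAACA, or to the E-box CACGTG, which clock factors are known to bind.
Sgk1, chr10:21993640-21993889 (+): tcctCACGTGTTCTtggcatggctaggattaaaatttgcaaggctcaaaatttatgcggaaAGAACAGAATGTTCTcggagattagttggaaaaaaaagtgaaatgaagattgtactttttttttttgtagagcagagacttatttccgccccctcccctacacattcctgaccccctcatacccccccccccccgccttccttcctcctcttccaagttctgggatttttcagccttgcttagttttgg
Tsc22d3, chrX:140600523-140600772 (-): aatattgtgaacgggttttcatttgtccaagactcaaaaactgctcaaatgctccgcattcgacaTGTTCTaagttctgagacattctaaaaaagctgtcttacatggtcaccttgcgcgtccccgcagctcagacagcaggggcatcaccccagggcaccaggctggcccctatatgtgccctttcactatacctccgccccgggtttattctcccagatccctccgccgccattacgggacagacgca
Usp2, chr9:44084670-44084919 (+): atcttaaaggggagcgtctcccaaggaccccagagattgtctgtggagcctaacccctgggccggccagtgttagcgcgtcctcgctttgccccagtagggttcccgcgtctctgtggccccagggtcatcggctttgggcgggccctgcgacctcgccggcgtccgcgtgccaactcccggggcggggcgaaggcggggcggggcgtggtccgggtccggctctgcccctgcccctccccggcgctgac
The full palindrome was in 3 of 32851 RefSeq promoters (0.00913%), each searched from 250 bases before to 50 after the start, and 1 of these 3 was the Sgk1 promoter above, where it began at -189 from the start. The same Sgk1 promoter had an E-box at -246, found in 7.15% of all promoters, which overlapped a short arm beginning at -242. The short arm alone was in 19.0% of promoters, in 3 of the 6 promoters listed for Sgk1 and in 1 of the 3 for Tsc22d3, where it began at -185. The Usp2 window held none of these letters. Such matches describe the letters only.

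Probes were 60 bases long, and the first 30 bases are given for the genes named above, with mm9 positions from the array's own annotation.
Scnn1a, probe used, chr6:125294843-125294902 (+): tgggtagactgaactgtgctcagggatgag
Scnn1a, other probe, chr6:125293939-125293998 (+): tgtccccaccctacatccccgccaccttct
Usp2, probe used, chr9:43903651-43903710 (+): gtagaatgtctagtgtacagtggagccttg
Usp2, other probe, chr9:43900824-43900883 (+): agctcacaacatttgtgaatttcccactaa
Sgk1, probe used, chr10:21719390-21719449 (+): cagttgtcagtcaaagccgttggtgttttc
Sgk1, other probe, chr10:21618550-21618609 (+): gtggatcctaaaattcatcttcccaagtat
Tsc22d3, probe used, chrX:137074094-137074153 (-): ctgctgtacgactccaggatttggatttgg
Tsc22d3, other probe above background, chrX:137074801-137074860 (-): acagcccagtgtggggttacagctttggga
Hsd11b2, only probe, chr8:108046785-108047002 (+): ctggctgctccaagacagctgcagtgacta
The Scnn1a probes started 904 bases apart, the Usp2 probes 2827 bases apart and the Sgk1 probes 100840 bases apart. The Hsd11b2 probe covered 218 bases of genome with its 60 bases. Exon and untranslated region boundaries in mm9 were not used here.

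Across the 10 genes, 9 read higher in C3aR-/-, against 56.6% of all genes tested, and the median difference was 0.15 against 0.026 over all genes. Leaving out both end arrays gave 9 of 10 higher (median 0.24), against 54.6% of all genes (median 0.019). Unadjusted limma p-values fell under 0.05 for 2 of the 10 genes, Scnn1a and Usp2, both higher, where 4.89% of all genes did so (2.21% higher and 2.68% lower). The groups did not overlap for 3 of the 10 genes, Scnn1a, Nr3c1 and Usp2, all higher in C3aR-/-, against 9.85% of all genes (5.66% higher and 4.19% lower). None of the 10 passed after adjustment over all genes: the limma adjusted p was 0.998 for Scnn1b, 0.949 for Hsd11b2 and 0.931 for the other genes. Without WT replicate 1 the number of members with an unadjusted p under 0.05 was 4 (Scnn1a, Usp2, Hsd11b2 and Nr3c2), without C3aR-/- replicate 2 it was 0, and without WT replicate 2, C3aR-/- replicate 1 or C3aR-/- replicate 3 it was 1. Without both end arrays it was 3, namely Scnn1b, Hsd11b2 and Nr3c2 but neither Scnn1a nor Usp2, and 2025 of all genes had such a p.

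**Figure D1:**
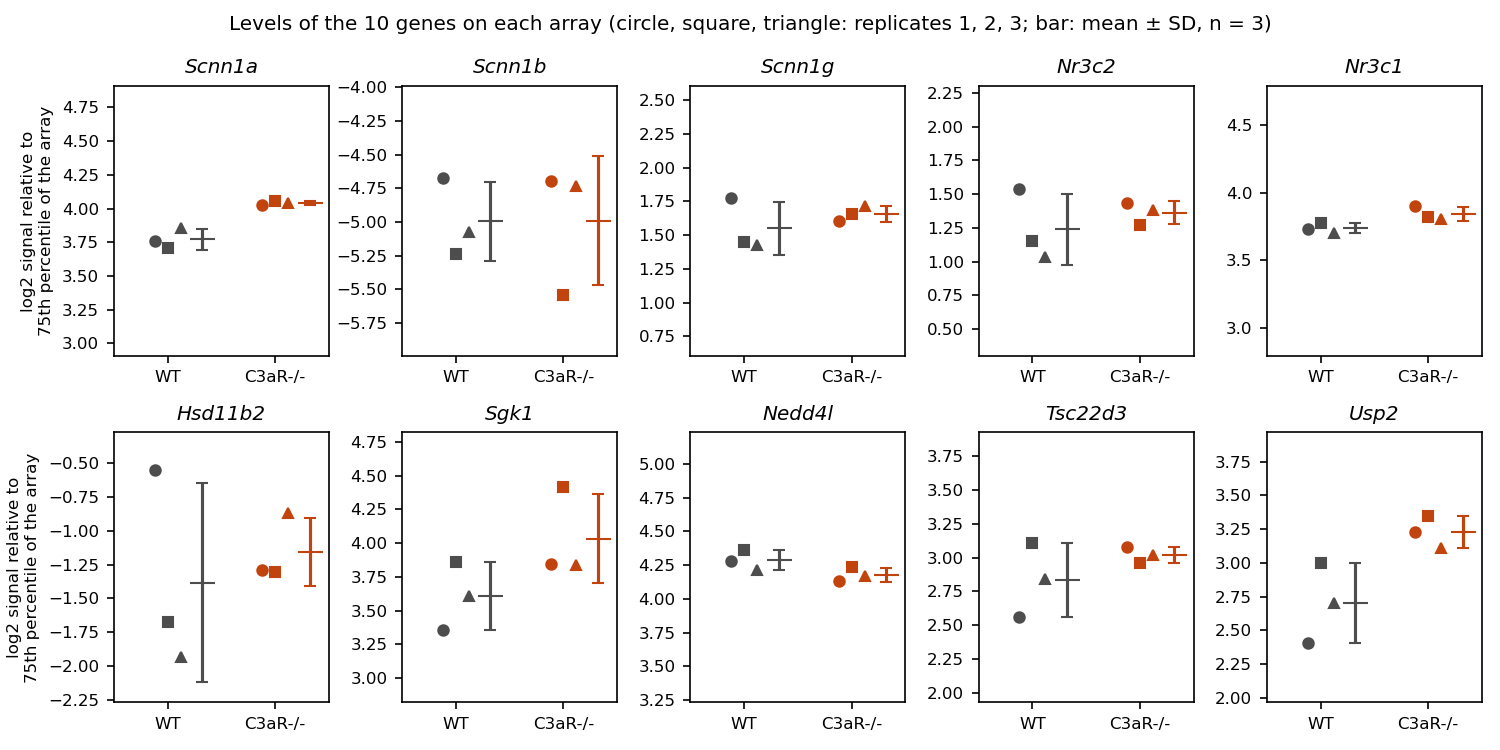
Level of each gene on each array, as log2 signal relative to the array's 75th percentile, with WT arrays and C3aR-/- arrays as points and the group mean ± SD beside them (n = 3 per group); every panel spans the same number of log2 units. The Scnn1a points of C3aR-/- lie between 4.03 and 4.06, above all WT points, while the Hsd11b2 points of WT spread from -1.93 to -0.55.

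Scnn1a, the alpha subunit without which the channel barely conducts, read 3.76, 3.70 and 3.86 in WT and 4.03, 4.06 and 4.04 in C3aR-/-. All C3aR-/- arrays lay above all WT arrays. The group means were 3.77 ± 0.078 and 4.04 ± 0.014 (SD, n = 3), and the difference of 0.27 ± 0.092 (SE) corresponded to a 1.20-fold higher signal, with a 95% interval of 0.045 to 0.49 and an unadjusted limma p of 0.0254 (adjusted 0.931). The difference was 0.26 within slide row 1 and 0.28 within row 2, and 0.25 without both end arrays. The other Scnn1a probe, whose first bases are printed above, read -0.21, -0.24 and -0.16 in WT and -0.27, 0.074 and -0.14 in C3aR-/-. Those groups overlapped, and its difference was 0.092 ± 0.12. Averaging both probes gave 0.18 for the gene, with an unadjusted limma p above 0.05. Its unadjusted limma p was under 0.05 in 11 of the 19 alternatives tried, but not without both end arrays.

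Scnn1g encodes the gamma subunit, which like alpha is cleaved by proteases that raise channel activity. It read 1.78, 1.45 and 1.43 in WT and 1.60, 1.66 and 1.72 in C3aR-/-, so that WT replicate 1 was the highest of all arrays and the other WT arrays were the lowest. The difference was 0.11 ± 0.13 (95% interval -0.20 to 0.41), and it was 0.22 without WT replicate 1 and 0.045 without WT replicate 3. Within slide rows its sign turned, with 0.19 in row 1 and -0.061 in row 2, which held 1 array per group. Scnn1b, the beta subunit, whose C-terminal PY motif binds NEDD4L, was read by 1 probe that was well above background on only 2 arrays of each group. Its levels were -4.67, -5.24 and -5.07 in WT and -4.70, -5.54 and -4.73 in C3aR-/-. The ranges overlapped, and the difference of 0.0061 ± 0.27 had a 95% interval of -0.64 to 0.65, wide enough to hold a change of either sign. It was 0.038 within row 1 and -0.059 within row 2. Leaving out both end arrays moved it to 0.44.

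Nr3c2 encodes the mineralocorticoid receptor. Its probe read 1.54, 1.15 and 1.03 in WT and 1.44, 1.27 and 1.38 in C3aR-/-, with WT replicate 1 again the highest and the other WT arrays the lowest. The difference was 0.12 ± 0.15 (95% interval -0.24 to 0.49), and it was 0.27 without WT replicate 1, 0.32 without both end arrays and 0.019 without WT replicate 3. Its sign also turned within slide rows, from 0.26 in row 1 to -0.16 in row 2. Of its other probes, 1 gave 0.074 ± 0.16 and the other, well above background on 4 arrays, gave -0.11 ± 0.27; the mean of its probes gave 0.031. Nr3c1, the glucocorticoid receptor, read 3.74, 3.78 and 3.70 in WT and 3.90, 3.82 and 3.81 in C3aR-/-. These groups did not overlap, but the gap was small and the difference of 0.10 ± 0.090 had a 95% interval of -0.11 to 0.32. Its other probe gave a difference of the opposite sign, -0.077 ± 0.16, with overlapping groups, and the mean of both probes gave 0.014.

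Hsd11b2, the gene of the enzyme that shields the mineralocorticoid receptor from corticosterone, had the widest spread within WT of the 10 genes. It read -0.55, -1.68 and -1.93 in WT and -1.29, -1.31 and -0.87 in C3aR-/-. The WT mean was -1.39 ± 0.74 and the C3aR-/- mean -1.16 ± 0.25 (SD, n = 3), and the difference of 0.23 ± 0.37 had a 95% interval of -0.65 to 1.11. The highest arrays of the 6 were WT replicate 1 and C3aR-/- replicate 3, the arrays of slide row 2, which averaged 0.84 above row 1. The genotype difference was 0.51 within row 1 and -0.32 within row 2. It was 0.65 without WT replicate 1, 0.72 without both end arrays and -0.044 without WT replicate 3, so its sign depended on which WT array was kept. Row 2 also held the highest arrays for Scnn1g, and these 2 of 10 genes (20%) stood against 11.2% of all genes; whether slide row had a part in these values was not tested.

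Sgk1, the kinase gene induced early by aldosterone and by glucocorticoids, read 3.36, 3.86 and 3.61 in WT and 3.85, 4.42 and 3.84 in C3aR-/-. WT replicate 1 was the lowest array and C3aR-/- replicate 2 stood clear above the rest, while WT replicate 2 overlapped the other C3aR-/- arrays. The difference was 0.43 ± 0.21, a 1.34-fold higher signal, with a 95% interval of -0.076 to 0.93. Within slide rows it was 0.40 and 0.48. It was 0.23 when C3aR-/- replicate 2 was left out and 0.11 when both end arrays were. The other Sgk1 probe, placed far upstream of the first, was not well above background on any array, so only 1 probe measured the gene here.

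Nedd4l, the ubiquitin ligase gene, was the only one of the 10 with a lower mean in C3aR-/-. It read 4.28, 4.36 and 4.22 in WT and 4.13, 4.24 and 4.17 in C3aR-/-, with 1 C3aR-/- array inside the WT range. The difference was -0.11 ± 0.094 (95% interval -0.34 to 0.12). Its other probes gave -0.093 ± 0.12, -0.0011 ± 0.26 and 0.024 ± 0.24, and the mean of all its probes was -0.045.

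Tsc22d3 encodes GILZ, a glucocorticoid- and aldosterone-induced protein that raises channel activity at the membrane. It read 2.56, 3.11 and 2.84 in WT and 3.08, 2.96 and 3.02 in C3aR-/-. WT replicate 1 was the lowest array and WT replicate 2 the highest, and the C3aR-/- arrays lay close together between them. The difference was 0.19 ± 0.15 (95% interval -0.18 to 0.56), and it was 0.048 without WT replicate 1 and 0.32 without WT replicate 2. Within slide rows it was 0.049 and 0.46. The other probe above background gave 0.21 ± 0.15 and read 1.48, 1.65 and 1.16 in WT and 1.71, 1.62 and 1.59 in C3aR-/-. On that probe WT replicate 3, not replicate 1, was lowest.

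Usp2, a deubiquitinase gene induced by aldosterone and under clock control, whose product can reverse NEDD4L's action on the channel, had the highest difference of the 10. It read 2.41, 3.0 and 2.70 in WT and 3.23, 3.35 and 3.11 in C3aR-/-, so that the groups did not overlap and WT replicate 1 was lowest. The means were 2.70 ± 0.30 and 3.23 ± 0.12 (SD, n = 3). The difference of 0.53 ± 0.17 was a 1.44-fold higher signal with a 95% interval of 0.12 to 0.93 and an unadjusted limma p of 0.0188 (adjusted 0.931). Its other probe, 2827 bases away, read 1.29, 1.86 and 1.42 in WT and 1.79, 2.0 and 1.87 in C3aR-/-, a difference of 0.36 ± 0.17 with 1 WT array inside the C3aR-/- range. Within slide rows the gene's difference was 0.44 and 0.71. It was 0.38 without WT replicate 1 and 0.32 without both end arrays. Its unadjusted limma p was under 0.05 in 17 of the 19 alternatives tried, but not without both end arrays.

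**Figure D2:**
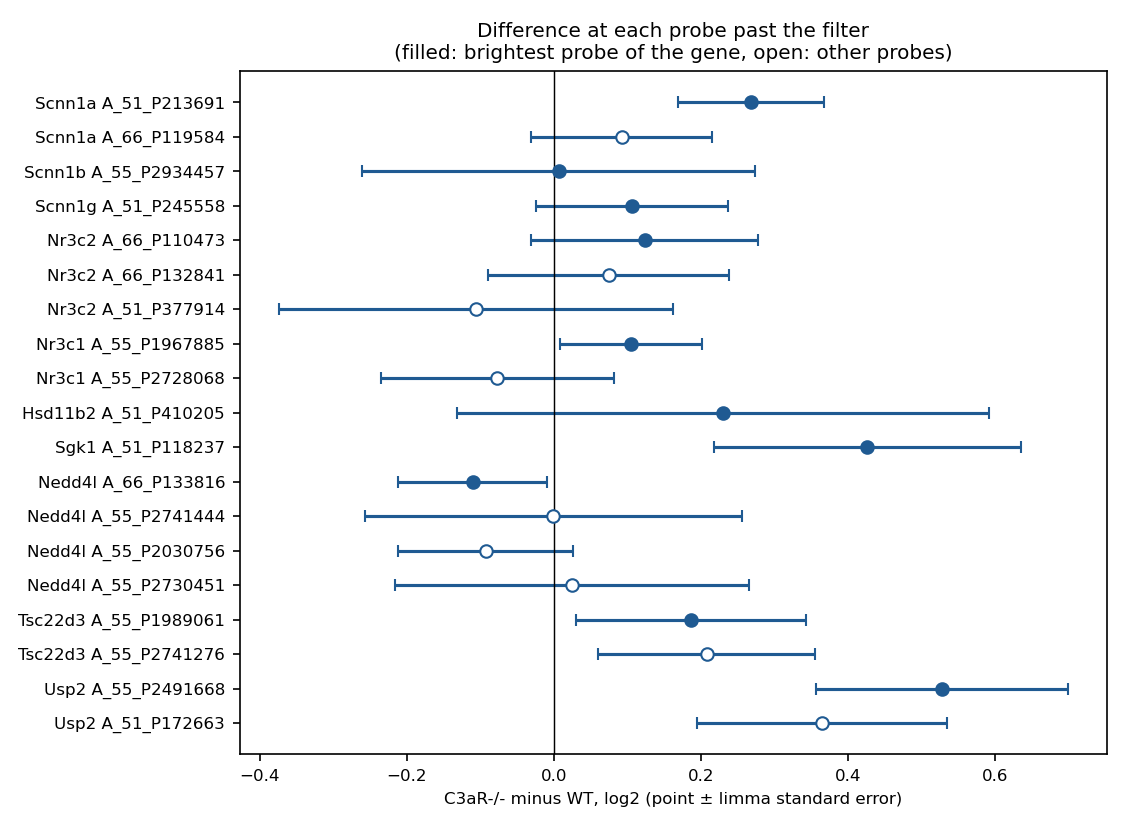
Difference of each probe of the 10 genes that was tested, C3aR-/- minus WT in log2, with its limma standard error; filled and open symbols separate the probe used for the gene from its other probes. Both Usp2 probes lie above 0, at 0.53 and 0.36, while the Nr3c1 probes lie on opposite sides of 0, at 0.10 and -0.077.

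The genes fell into contrasting patterns on single arrays. WT replicate 1 was the lowest of the 6 arrays for Sgk1 (-0.46 from the gene's mean), Tsc22d3 (-0.37) and Usp2 (-0.56). The same array was the highest for Hsd11b2 (0.72), Scnn1b (0.32), Nr3c2 (0.23) and Scnn1g (0.17). The wider list of glucocorticoid and aldosterone response genes was not low there: its mean on WT replicate 1 was 0.065 from the genes' means, the highest of the 6 arrays. Scnn1a followed neither set, with its lowest reading on WT replicate 2 (-0.20).

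Marker lists on the same arrays are given beside this pattern. Proximal tubule markers, all 20 above background on every array, averaged -0.86, 0.26 and 0.015 from their means in WT and 0.071, 0.57 and -0.062 in C3aR-/-, so that WT replicate 1 was lowest and C3aR-/- replicate 2 highest, as for Sgk1 and Usp2. All 20 read higher in C3aR-/- (median 0.35), and none had an unadjusted p under 0.05. Without both end arrays the direction turned, with 4 higher and 16 lower (median -0.089). Leaving out the same arrays lowered Usp2 from 0.53 to 0.32 and Sgk1 from 0.43 to 0.11. Distal convoluted and connecting tubule markers averaged -0.35, 0.043 and 0.031 in WT and -0.041, 0.26 and 0.049 in C3aR-/-, and 10 of 13 read higher (median 0.23). With the end arrays left out 8 of 13 did (median 0.048). Principal cell markers, from the collecting duct cells that hold the channel, averaged -0.11, -0.10 and 0.14 in WT and -0.0026, -0.0040 and 0.075 in C3aR-/-. Dim genes of wide spread weigh on these means. Elf5 read -4.0, -4.9 and -2.9 in WT and Aqp4 -3.4, -2.8 and -1.65, both highest of all arrays on WT replicate 3. Of the principal cell markers, 10 of 11 read higher (median 0.093), and 6 of 11 without both end arrays (median 0.11). Aqp2, the vasopressin-regulated water channel that defines the cells, differed by 0.26 ± 0.17 and by 0.097 without C3aR-/- replicate 2. Intercalated cell markers, from the acid-base cells of the same segments, read higher for 10 of 13 (median 0.13), and 3 had an unadjusted p under 0.05, all higher, where 2.21% of all genes did. With the end arrays left out 11 of 13 were higher (median 0.20). The part of cell makeup in the differences of the 10 genes was not tested. Of 10 adrenal cortex markers 7 passed the filter, and all 7 read higher in C3aR-/- (median 0.15), 6 of them without both end arrays (median 0.14). Over all genes 56.6% read higher. In each of the 7 the groups overlapped, and 0 had an unadjusted limma p under 0.05. Most were dim, with WT means of -2.88 for Star, -4.48 for Mc2r, -3.95 for Hsd3b1, -2.77 for Nr5a1 and -3.60 for Cyp21a1. Fdx1 (5.03) and Akr1b7 (0.097) were brighter. The steroid-synthesis genes Cyp11a1, Cyp11b1 and Cyp11b2 were well above background on 0 arrays.

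**Figure D3:**
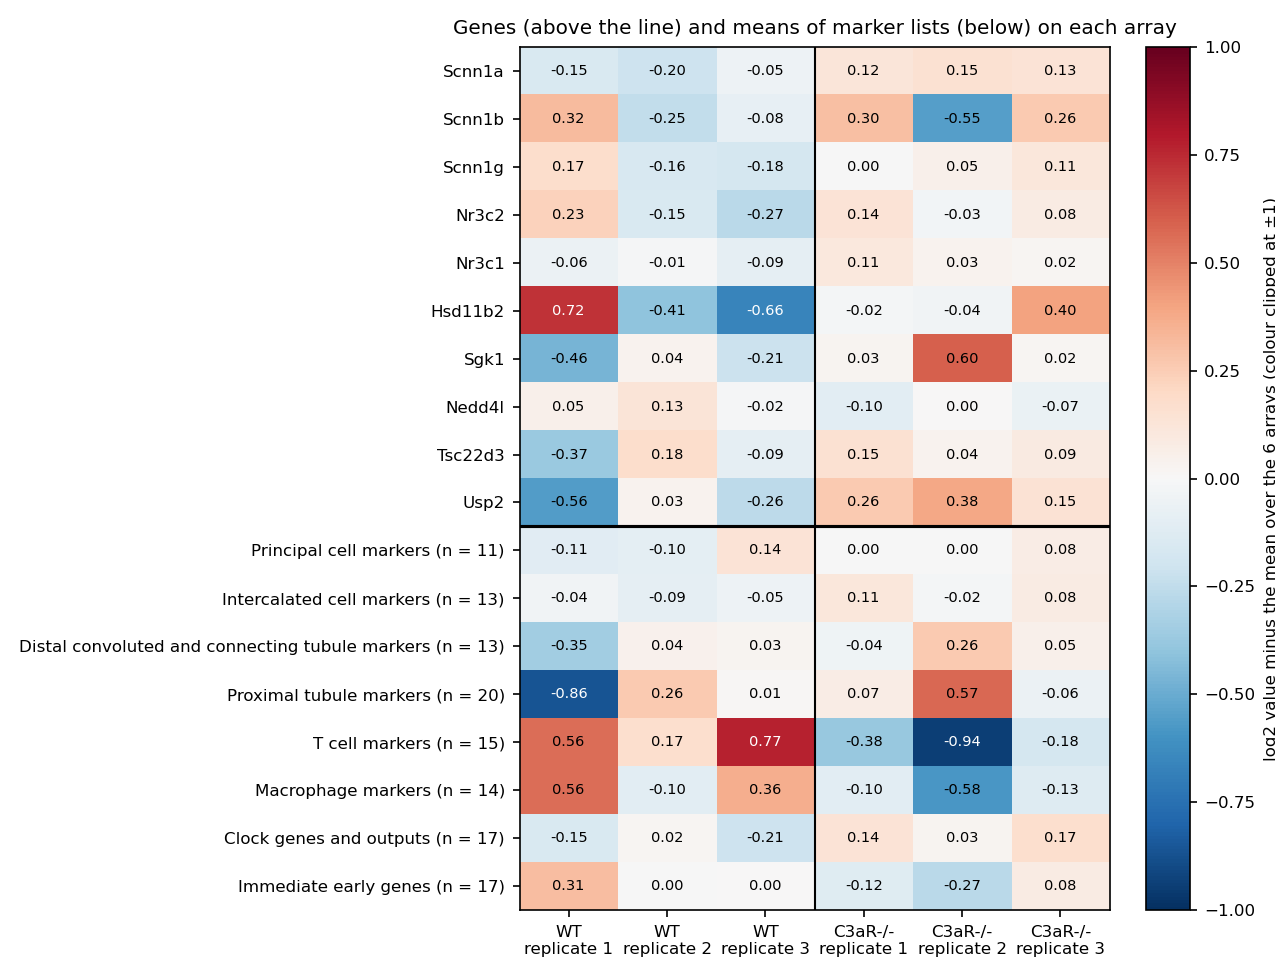
Log2 values of each gene on each array minus the gene's mean over the 6 arrays, above the line, and the means of marker lists treated the same way, below it. WT replicate 1 is low for Sgk1, Tsc22d3 and Usp2 (-0.46, -0.37 and -0.56) and for proximal tubule markers (-0.86), and high for Hsd11b2 (0.72).

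Proteases, trafficking factors and other genes that act on the channel or beside it gave 22 of 35 genes higher and 13 lower (median 0.044, against 0.026 over all genes). These were 25 higher and 10 lower without both end arrays (median 0.058). Unadjusted p-values were under 0.05 for 1 higher and 1 lower, near the shares over all genes (2.21% and 2.68%). Tmprss4, a membrane serine protease, differed by -0.36 ± 0.15, the SNARE gene Snap23 by 0.20 ± 0.094 and the vesicle GTPase gene Rab3a by 0.18 ± 0.10, in each case with groups that did not overlap. Tmprss4 was -0.23 without WT replicate 1, and Rab3a was 0.30 with its probes averaged.

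Among 25 genes of the kinase pathway around SGK1 and mTORC2, the complex that activates it, 16 read higher and 9 lower (median 0.021), with no unadjusted p under 0.05. Without both end arrays 12 were higher and 13 lower (median -0.010). Sgk2, a related kinase gene, differed by 0.39 ± 0.17 and its groups did not overlap. The mTORC2-associated gene Prr5l differed by -0.30 ± 0.16, the insulin receptor substrate gene Irs2 by -0.21 ± 0.12 and Wnk4, the kinase gene of the distal nephron's chloride and potassium handling, by 0.23 ± 0.14. Without both end arrays Sgk2 was 0.14, Prr5l -0.12 and Wnk4 0.065, and Irs2 was -0.13 without WT replicate 2.

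Receptor partners and steroid-handling genes were close to evenly divided, with 14 of 27 higher and 13 lower (median 0.013). These were 16 higher and 11 lower without both end arrays (median 0.044). Akr1c18, which encodes a progesterone-inactivating reductase, read -2.30, -2.55 and -1.92 in WT and -2.77, -2.99 and -2.89 in C3aR-/-. All its C3aR-/- arrays lay below WT, and the difference was -0.63 ± 0.17 (limma adjusted p = 0.931). Mllt3 and Dot1l encode partners known to hold Scnn1a transcription down until aldosterone acts. Mllt3 differed by -0.27 ± 0.12, with 1 of its 3 probes of opposite sign at 0.35, and Dot1l by 0.17 ± 0.096. The steroid reductase gene Srd5a1 differed by -0.48 ± 0.24. Other settings gave smaller values: -0.37 for Akr1c18 under normexp, -0.026 for Mllt3 with its probes averaged and -0.19 for Srd5a1 without both end arrays.

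Other genes known to respond to glucocorticoids or aldosterone were divided: 20 of 34 read higher and 14 lower (median 0.021), where 56.6% of all genes were higher. Unadjusted limma p-values were under 0.05 for 1 higher and 2 lower, against 2.21% higher and 2.68% lower over all genes. Without both end arrays 15 were higher and 19 lower (median -0.054). Klf15, a glucocorticoid-induced transcription factor gene, read 1.92, 2.60 and 2.55 in WT and 2.99, 2.90 and 2.89 in C3aR-/-, a difference of 0.57 ± 0.19. WT replicate 1 was the lowest array for Klf15, as for Sgk1, Tsc22d3 and Usp2, and the difference without it was 0.35. The metallothionein gene Mt2 differed by -0.50 ± 0.17, and Angptl4, an inhibitor of lipoprotein lipase, by -0.42 ± 0.18. Mt2 was -0.32 without both end arrays, and Angptl4 was -0.26 without WT replicate 1. Lcn2, which injured tubules and myeloid cells also express, read 3.99, 2.28 and 2.52 in WT and 1.62, 1.69 and 1.85 in C3aR-/-. Its WT replicate 1 stood far above the rest, and the difference of -1.21 ± 0.44 was -0.66 without both end arrays.

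Because Usp2 is also a clock output, clock genes were read beside it. Of 17 tested, 13 were higher in C3aR-/- and 4 lower (median 0.26), where 56.6% of all genes were higher. Unadjusted limma p-values were under 0.05 for 2, Per3 (0.39 ± 0.16) and Per2 (0.65 ± 0.26). Both were higher, and 2.21% of all genes were higher at that threshold. The list's median was 0.20 without both end arrays, again with 13 higher. Per2 read 1.13, 1.66 and 0.90 in WT and 2.20, 1.44 and 1.99 in C3aR-/-, with overlapping groups, and 1 of the 3 Per3 probes gave -0.040. The list's mean per array was -0.15, 0.020 and -0.21 in WT and 0.14, 0.030 and 0.17 in C3aR-/-. The labels give no hour for tissue collection, and its part in the Usp2 values was not tested. Immediate early genes, which respond to handling and to signalling, were lower for 12 of 17 (median -0.23), and for 10 of 17 without both end arrays (median -0.055).

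The genes most like each pattern were found by the root mean square difference between centred values over the 6 arrays, among about as many named genes for each pattern (15424 or 15426). For the mean of the channel subunits they were Dll1 (0.027), Peli1 (0.030) and Dip2a (0.032). For Sgk1 they were Gm1653 (0.069), 1700018L02Rik (0.071) and D630013N20Rik (0.071). For Tsc22d3 they were Prox1 (0.024), Cfap46 (0.045) and Wnt5b (0.047), and for Usp2 Gm10768 (0.049), Gm14023 (0.062) and Gk (0.066). The subunit mean leaned on the dim Scnn1b probe, whose centred values ran from -0.55 to 0.32. Those of Scnn1a ran from -0.20 to 0.15 and those of Scnn1g from -0.18 to 0.17. With 6 arrays and this many candidates, close matches describe these libraries only.

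**Figure D4:**
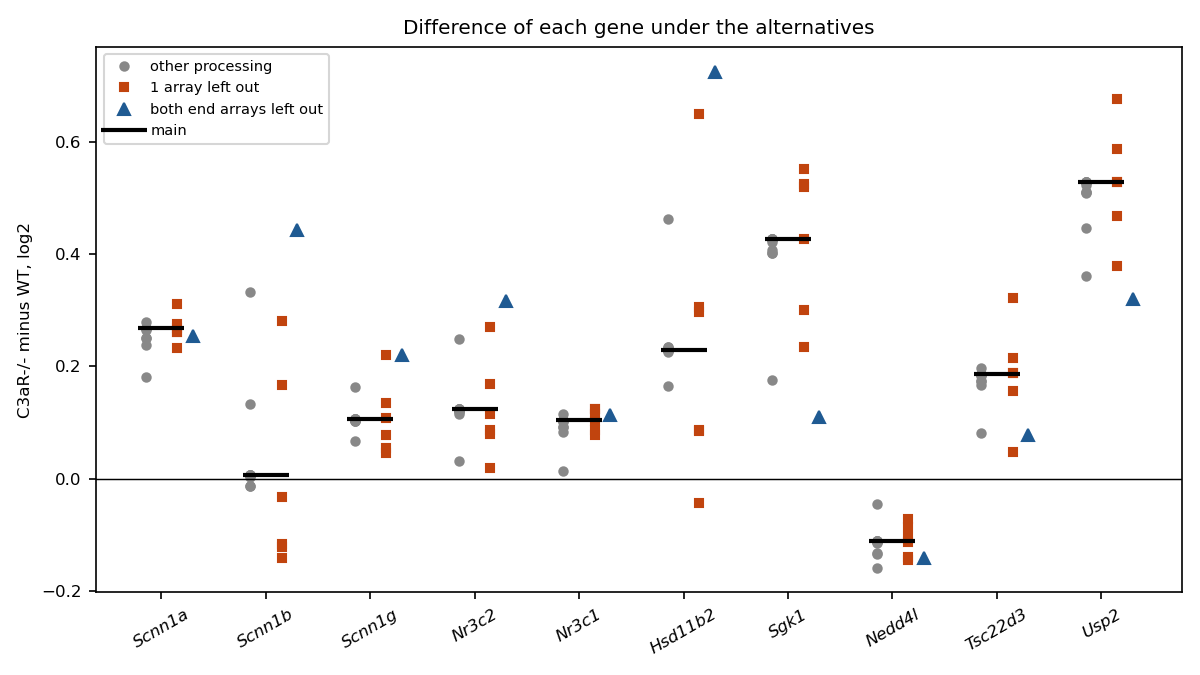
Difference of each gene, C3aR-/- minus WT in log2, in the main analysis (bars) and under other processing, with 1 array left out and with both end arrays left out. Usp2 stays between 0.32 and 0.68 and Scnn1a between 0.18 and 0.31, whereas Hsd11b2 runs from -0.044 to 0.72 and Scnn1b from -0.14 to 0.44.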

How the data were processed

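Groups came from the sample titles. The deposited intensity values are processed signals, background-subtracted per the file headers by Feature Extraction 10.7.1.1 (Agilent) for 62976 spots per array on an mm9 grid. The headers give 1 slide and 1 scan for all arrays. The authors' deposited table holds log2 values, whose columns share their sorted values to within 0.000865, and the labels name no tool for it.

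Control spots and outlier-flagged spots were left out (6 probes lost) and spots of a probe were averaged. Probes well above background on at least 3 arrays were kept (34778). A gene was represented by its probe of highest mean level. RefSeq symbols (GRCm38.p6) named 32994 probes, and 23611 kept the file's name. Limma 3.58.1 (R 4.3.3; lmFit, eBayes, Benjamini-Hochberg over 22741 genes) tested C3aR-/- against WT and was first tested on simulated data; figures used matplotlib 3.10.9. A gene's SE comes from this fit, and that of its other probes from a fit over all probes.

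Members, lists and alternatives were chosen with earlier results of these data known. Named genes were the members, the 4 with the smallest p in each pathway list, up to 2 in other lists where a result turned on them, C3ar1, and the 3 most like each pattern. The rule also took 1 gene that is not reported here. Alternatives covered scaling, background, filter, probe choice, variance model, array weights, blocks, left-out arrays and the authors' table. List values without both end arrays were added after the data were seen.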

Additional observations from a re-analysis of the deposited data

How the results depend on the processing

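No gene passed an adjusted p of 0.05 in limma under any of the 19 alternatives, and the lowest adjusted p of any of the 10 genes was 0.465, for Scnn1a. Over all genes, the count at an unadjusted p under 0.05 was 1111 in the main analysis, 2115 with array weights, 1742 with the slide row as a block and 2025 without both end arrays, and it ran from 767 to 1523 when 1 array was left out. Among the 10 genes it was 2, against 1 with no filter on dim probes, 1 with the mean of the probes, and from 0 to 4 when 1 array was left out. Without both end arrays it was 3, and Scnn1a and Usp2 were not among them. Scnn1b turned to -0.013 under quantile normalization and to -0.013 in the authors' deposited table, and ran from -0.14 to 0.28 with 1 array left out; it did not pass a filter for all 6 arrays. Hsd11b2 ran from -0.044 to 0.65 with 1 array left out. The causes were not tested. The other 8 genes kept their direction under these alternatives, but Scnn1g and Nr3c2 turned within slide row 2 (-0.061 and -0.16), and single probes of Nr3c1, Nr3c2 and Nedd4l had the opposite sign. Same-numbered samples had correlations of their deviations from the group means of 0.13, 0.41 and -0.093. Other pairs were not set beside them, so these values cannot say whether the numbers pair the samples. With the replicate block 1597 genes, and 2 of the 10 (Sgk1 and Usp2, not Scnn1a), had an unadjusted p under 0.05. Scalings moved the median difference of all genes between 0.016 and 0.033. The end arrays lie in opposite groups, so their joint removal must move the part of a difference that lies along the first component. On that component the arrays left scored 11.4 and -0.80 in WT and 4.54 and -7.77 in C3aR-/-, so that part turned in sign. A gene's whole difference can then fall, as for Usp2 (0.53 to 0.32) and Sgk1 (0.43 to 0.11). It can also rise, as for Hsd11b2 (0.23 to 0.72) and Nr3c2 (0.12 to 0.32).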
